A study of Mus musculus with 12 samples.

Results

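Protein-folding genes of the endoplasmic reticulum (ER) were measured in pancreatic islets of anti-CD3 treated and IgG treated NOD/ShiLtJ mice, in which the immune system attacks the islets. The set held 10 genes, picked by symbol as chaperones of the ER lumen or targets of the transcription factors XBP1 and ATF6, out of 49315 genes in the count table, and all 10 were among the 13115 genes that passed a filter on low counts. The anti-CD3 group had 6 islet libraries of wild-type female mice with normal blood glucose that received an antibody against CD3, the signalling part of the T cell receptor, at 2.5 mg/kg once a week for 4 weeks from 9 weeks of age. The IgG group had 6 libraries of such mice given IgG on the same schedule. Islets were freed with collagenase 2 to 3 days after the last dose, and poly(A) RNA was sequenced as read pairs. The labels do not say whether a library came from 1 mouse or a pool. The p-values therefore reflect only how far these libraries scatter, which may be technical.

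Cells that secrete much protein fold it in the ER with the help of lumenal chaperones and disulfide enzymes. When unfolded protein builds up, the sensor IRE1 splices Xbp1 mRNA so that it encodes an active factor, and ATF6 is cut free of the membrane, and both factors raise transcription of chaperone and degradation genes. Insulin-making beta cells and enzyme-making acinar cells of the pancreas both carry a heavy load of secretory protein and express these genes strongly.

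Library totals ran from 10994337 to 19284740 counts in anti-CD3 and from 11891132 to 17628347 in IgG. Acinar genes, 32 digestive enzyme and granule genes of the exocrine pancreas, took 68.6% to 72.5% of the counts in anti-CD3 and 32.4% to 71.8% in IgG, where IgG 6 held 32.4% and IgG 5 held 55.4%. The hormone genes Ins1, Ins2, Gcg, Sst, Ppy, Pyy and Iapp were detected in every library and took 0.961% to 2.03% of the counts in anti-CD3 and 1.23% to 3.86% in IgG. The labelled islets were thus present, with acinar genes taking most of the counts in all libraries but IgG 6. In bulk samples, fewer cells of a type and less RNA per cell cannot be told apart.

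The regions upstream of the annotated starts of 5 of the 10 genes are shown because each held a known ER stress response element. The element called ERSE, bound by ATF6 together with the CCAAT-binding factor NF-Y, was searched as CCAAT and CCACG with any 9 bases between them, and ERSE-II as ATTGG and CCACG with any 1 base between them, on both strands of 250 bases before to 50 bases after each start. Capitals mark the matches. Sequences are from RefSeq on GRCm38.p6, the C57BL/6J reference and not the NOD genome, and run 5′ to 3′ on the strand of the gene over the 250 bases before the start.
Hspa5: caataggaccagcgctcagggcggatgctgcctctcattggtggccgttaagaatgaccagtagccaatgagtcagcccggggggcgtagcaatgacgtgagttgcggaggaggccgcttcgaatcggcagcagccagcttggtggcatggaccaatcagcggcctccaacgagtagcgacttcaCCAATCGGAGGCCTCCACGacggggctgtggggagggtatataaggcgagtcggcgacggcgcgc
Pdia6: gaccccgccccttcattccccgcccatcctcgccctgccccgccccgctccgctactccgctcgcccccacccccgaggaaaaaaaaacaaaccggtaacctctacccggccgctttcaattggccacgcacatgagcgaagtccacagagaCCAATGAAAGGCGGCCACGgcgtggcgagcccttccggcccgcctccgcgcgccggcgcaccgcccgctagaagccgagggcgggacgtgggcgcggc
Herpud1: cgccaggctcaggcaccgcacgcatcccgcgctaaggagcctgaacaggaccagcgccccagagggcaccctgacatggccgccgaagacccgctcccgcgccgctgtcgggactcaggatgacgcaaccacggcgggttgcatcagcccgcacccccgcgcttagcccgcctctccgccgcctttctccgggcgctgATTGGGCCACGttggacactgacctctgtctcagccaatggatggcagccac
Hsp90b1: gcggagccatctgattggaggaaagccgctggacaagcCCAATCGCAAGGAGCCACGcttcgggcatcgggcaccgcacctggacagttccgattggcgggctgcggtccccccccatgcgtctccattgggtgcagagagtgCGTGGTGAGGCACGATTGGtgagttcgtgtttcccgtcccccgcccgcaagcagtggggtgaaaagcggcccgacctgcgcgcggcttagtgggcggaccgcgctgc
Calr: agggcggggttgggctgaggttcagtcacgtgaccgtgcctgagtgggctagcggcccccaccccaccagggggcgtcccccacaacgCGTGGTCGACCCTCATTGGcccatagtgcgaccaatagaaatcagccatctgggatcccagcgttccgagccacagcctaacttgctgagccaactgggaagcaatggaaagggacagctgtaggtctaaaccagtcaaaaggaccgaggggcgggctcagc

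On GRCm38 the genes, all protein-coding, lie at chr2:34771970-34777547 (Hspa5), chr10:86690209-86705509 (Hsp90b1), chr6:47796141-47813430 (Pdia4), chr12:17266545-17284770 (Pdia6), chr12:44205559-44210326 (Dnajb9), chr16:17130138-17132383 (Sdf2l1), chr8:94386438-94395377 (Herpud1), chr11:5520659-5525893 (Xbp1), chr8:84841850-84846934 (Calr) and chr9:44379490-44392369 (Hyou1). The printed windows lie at chr2:34771840-34772089 on the plus strand for Hspa5, chr12:17266339-17266588 on the plus strand for Pdia6, chr8:94386179-94386428 on the plus strand for Herpud1, chr10:86705445-86705694 on the minus strand for Hsp90b1 and chr8:84846932-84847181 on the minus strand for Calr. Promoters of 9 of the 10 genes were matched by symbol, and Hyou1 was not. An ERSE was found in Hspa5 at -65 to -47 from the start, in Pdia6 at -98 to -80, in Calr at -162 to -144 on the opposite strand and in Hsp90b1 at 2 places, -212 to -194 and, on the opposite strand, -107 to -89. An ERSE was held by 0.119% of all 32851 RefSeq promoter windows. The ERSE-II was found in Herpud1, at -52 to -42, and in 0.0365% of all windows. The XBP1-type element TGACGTGG was found in 0 of the 9 and in 0.676% of all windows. A plain CCAAT, which also lies within each ERSE, was present in 8 of the 9, all but Xbp1, and in 37.4% of all windows. The 10 genes were picked as ER chaperones or as targets of XBP1 and ATF6, so matches to ERSE and ERSE-II in them could be foreseen. The shares of all windows are given as a description and are no test of the set.

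In anti-CD3 islets 9 of the 10 genes, against 44.8% of all genes, had a higher fitted level than in IgG islets, and the median of their log2 fold changes was 0.42, beside -0.05 over all genes tested. None of the 10 passed at an adjusted p of 0.05 (edgeR quasi-likelihood test), which 0.0762% of all genes passed. In this fit the 10 split into 5 genes between 0.51 and 0.79 on the log2 scale, namely Xbp1, Herpud1, Sdf2l1, Pdia6 and Hspa5, and 5 genes between -0.09 and 0.32. The first 5 were also the ones under an unadjusted p of 0.05, all of them higher in anti-CD3, beside 9.68% of all genes tested in that direction and 18.4% in both. With DESeq2, Xbp1 and Pdia6 passed at an adjusted p of 0.05 (adjusted p = 0.0244 and 0.0246), beside 3.58% of all genes, and in the authors' deposited table the same 2 passed (adjusted p = 0.0226 and 0.0220), beside 4.55%.

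**Figure D1:**
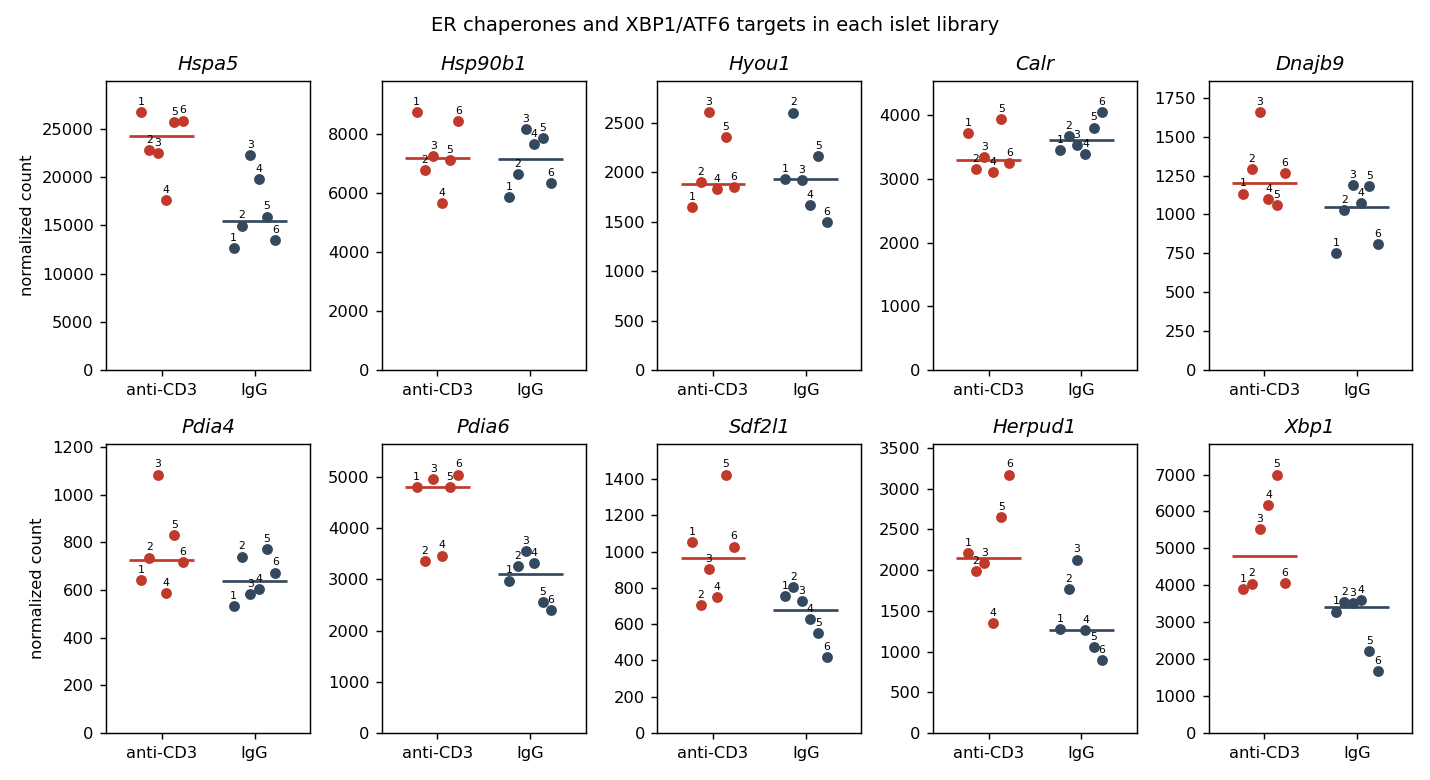
Normalized count (count divided by the authors' size factor of the library) of each of the 10 genes in 6 anti-CD3 and 6 IgG libraries. Each point is a library with its replicate number and lines are medians. For Xbp1 every anti-CD3 point lies above every IgG point, and the other 9 genes overlap.

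Hspa5 encodes BiP, the main HSP70 chaperone of the ER lumen, which also holds the stress sensors inactive when it is free. Its normalized count, the count divided by the authors' size factor of the library, was 17641 at the lowest, 24268 at the median and 26759.8 at the highest in anti-CD3 islets, against 12648, 15450.0 and 22333 in IgG islets. All but 1 of the anti-CD3 libraries, anti-CD3 4, lay above every IgG library. On the log2 scale this was 0.51 ± 0.19 (SE, 6 libraries each; edgeR adjusted p = 0.179), a fold of 1.43.

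Hsp90b1 encodes GRP94, the HSP90 chaperone of the ER. It had 5670.0, 7189 and 8757 normalized counts (lowest, median, highest) in anti-CD3 islets, against 5859, 7162 and 8165 in IgG islets. The 2 groups covered nearly the same range, and the log2 fold change was 0.05 with a 95% interval of -0.27 to 0.37 (edgeR adjusted p = 0.878). Hsp90b1 shares 415 exon bases with 1810014B01Rik, a pseudogene on the opposite strand, and without strand in the counting their reads cannot be told apart.

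Hyou1, the large HSP70-like protein GRP170 that exchanges nucleotide on BiP, had 1646, 1874 and 2606 normalized counts in anti-CD3 islets, against 1497, 1926 and 2600.1 in IgG islets. The ranges overlapped almost fully, with a log2 fold change of 0.05 and a 95% interval of -0.30 to 0.41 (edgeR adjusted p = 0.884). Calr, the lectin chaperone calreticulin that binds newly made glycoproteins and calcium, was the gene with a negative value. It had 3108, 3301 and 3936 normalized counts in anti-CD3 islets, against 3392, 3608 and 4052 in IgG islets. The groups overlapped, and the log2 fold change was -0.09 with a 95% interval of -0.35 to 0.16 (edgeR adjusted p = 0.701).

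Dnajb9, the ER co-chaperone ERdj4, which delivers BiP to IRE1 and to misfolded proteins, had 1058, 1199 and 1658 normalized counts in anti-CD3 islets, against 752, 1049 and 1187 in IgG islets. Every anti-CD3 library lay above the IgG median and 3 lay above the highest IgG library, with a log2 fold change of 0.32 ± 0.16 (SE, edgeR adjusted p = 0.304). Sdf2l1, a small lumenal protein that works in complex with ERdj co-chaperones of BiP, had 707, 967 and 1425 normalized counts in anti-CD3 islets, against 418, 678 and 805 in IgG islets. Here 4 anti-CD3 libraries lay above the highest IgG library, and the log2 fold change was 0.60 ± 0.20 (SE, edgeR adjusted p = 0.151). With an offset for transcript length the median of the 10 genes was 0.27 and the Sdf2l1 value was 0.29 ± 0.17 (SE, edgeR adjusted p = 0.395).

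The 2 disulfide isomerases of the set had different values with all 12 libraries, and this difference was not tested. Pdia6, the isomerase P5, had 3354, 4802 and 5044 normalized counts in anti-CD3 islets, against 2395, 3114 and 3553 in IgG islets. In 4 anti-CD3 libraries it lay near the top of this range, above all IgG libraries, while anti-CD3 2 and anti-CD3 4 lay within the IgG range. The log2 fold change was 0.55 ± 0.16 (SE, n = 6 per group, edgeR adjusted p = 0.112). Pdia4, the isomerase ERp72, had 586, 727 and 1084 normalized counts in anti-CD3 islets, against 531, 639 and 773 in IgG islets, with a log2 fold change of 0.24 ± 0.16 (SE, edgeR adjusted p = 0.439). Its highest library was anti-CD3 3, without which the value was 0.11, and the groups overlapped.

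Herpud1 encodes a membrane protein that organises the degradation of misfolded ER proteins. It had 1354, 2150.2 and 3173 normalized counts in anti-CD3 islets, against 893, 1268 and 2128 in IgG islets. The spread was wide in both groups, 3 anti-CD3 libraries lay above the highest IgG library, and the log2 fold change was 0.68 ± 0.23 (SE, edgeR adjusted p = 0.160).

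Xbp1, which encodes the transcription factor of the set, had the largest value of the 10. Its normalized count was 3906, 4797 and 6996 (lowest, median, highest) in anti-CD3 islets, against 1685, 3405 and 3599 in IgG islets. The groups did not overlap, which held for 1.14% of all genes tested in that direction. The low end of IgG came from IgG 5 and IgG 6, and the high end of anti-CD3 from anti-CD3 3, anti-CD3 4 and anti-CD3 5. On the log2 scale this was 0.79 ± 0.22 (SE, 6 libraries each; edgeR adjusted p = 0.108), a fold of 1.72. Counts per gene sum the spliced and unspliced forms of Xbp1 mRNA, so the active form was not measured.

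Because IgG 5 and IgG 6 had the lowest acinar shares, each gene was fitted again with both left out and, separately, with a covariate for acinar content (mean log2 CPM of the 32 acinar genes). Without IgG 5 and IgG 6, Xbp1 was at 0.55, Herpud1 at 0.48, Hspa5 at 0.43, Pdia6 at 0.42 and Sdf2l1 at 0.42, and the same 5 genes were under an unadjusted p of 0.05, beside 10.4% of all genes in either direction and 6.23% in the higher one. Pdia4 was at 0.32 there. With the covariate the highest values were Xbp1 at 0.46 ± 0.20, Pdia6 at 0.34 ± 0.16 and Herpud1 at 0.33 ± 0.22 (SE), and only Xbp1 and Pdia6 of the 10 were under an unadjusted p of 0.05, beside 8.94% of all genes in either direction and 4.8% in the higher one. Hspa5 was then at 0.31, Pdia4 at 0.30 and Sdf2l1 at 0.28, so the split into 5 and 5 genes did not hold with the covariate. None of the 10 passed at an adjusted p of 0.05 in either fit (smallest edgeR adjusted p 0.535 with the covariate and 0.313 without both libraries, both for Xbp1).

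**Figure D2:**
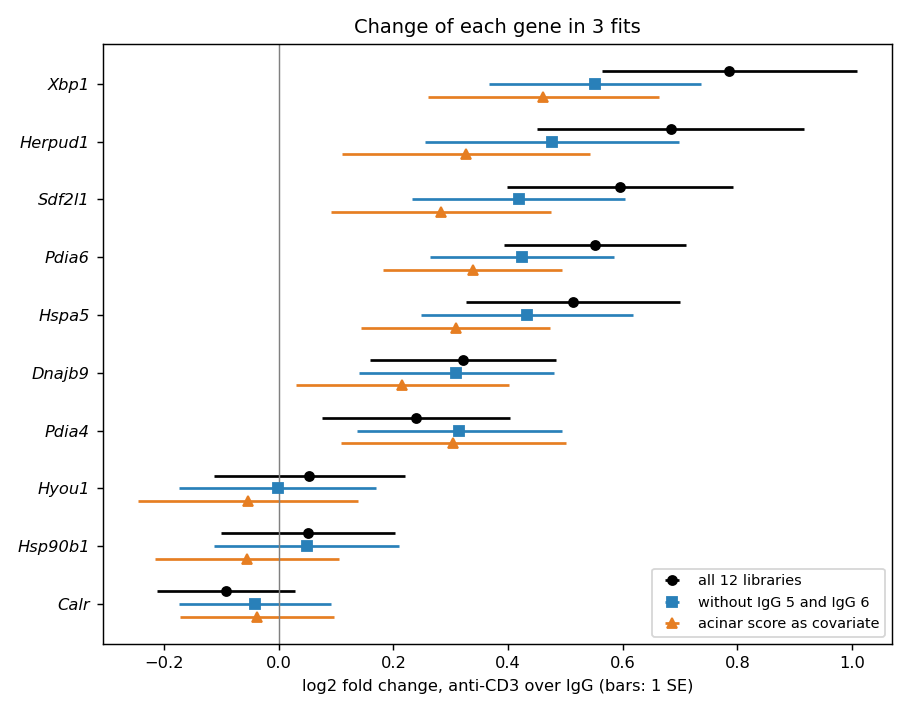
Log2 ratio of anti-CD3 to IgG for each gene in 3 fits, namely all 12 libraries, IgG 5 and IgG 6 left out, and acinar content as a covariate. Bars are 1 SE. Xbp1 goes from 0.79 with all libraries to 0.46 with the covariate, while Hyou1, Hsp90b1 and Calr stay within 0.10 of 0 in all 3 fits.

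Fitted levels of cell type markers were compared between the groups as well. Of the 32 acinar genes 31 had positive log2 fold changes, 13 of them under an unadjusted p of 0.05, the median was 0.70, and none was at 0 in any library. Their summed normalized count was 10990300 to 14674100 in anti-CD3 and 2073250 to 12441600 in IgG. Plasma cells also make much Xbp1 and chaperone mRNA. The summed level of 11 B and plasma cell genes was 943 to 8632 normalized counts in anti-CD3 and 606 to 10758 in IgG, with Pax5, Cd79b, Tnfrsf17, Mzb1 and Ms4a1 at 0 in at least 1 library. Of the 10 such genes tested 9 were lower in anti-CD3, with a median of -0.88. They ran from -1.80 (Pax5) to 0.42 (Sdc1), with Jchain at -0.02, Ighm at -0.07 and Mzb1 at -0.14. Lower values were also found for all 14 T cell genes (median -1.24), all 9 stroma genes (median -1.05) and all 10 macrophage genes (median -0.86), and higher values for all 6 regenerating protein genes (median 2.72). The 13 beta cell identity genes were lower except G6pc2, Pcsk1 and Mafa, and ran from -0.66 (Chgb) to 0.78 (Mafa). Duct genes ran from -0.64 (Cftr) to 0.68 (Muc1) and endothelium genes from -0.51 (Kdr) to 0.20 (Emcn). With IgG 5 and IgG 6 left out, 7 of the 10 B and plasma cell genes were higher (median 0.48), and the T cell median was -0.30. The B and plasma cell values then ran from -0.42 (Prdm1) to 3.00 (Jchain), with Mzb1 at 2.31 and Ighm at 1.91. Macrophage values then ran from -0.55 (Csf1r) to 0.71 (Mrc1) and stroma values from -1.29 (Col3a1) to 0.40 (Dcn). With the acinar covariate every macrophage gene but Csf1r was above 0, and T cell values ran from -0.86 (Cd3e) to 1.18 (Cd2). Every B and plasma cell gene tested but Prdm1, at -0.17, was then above 0, up to 4.02 for Jchain. The part of these cells in the result was not tested beyond the acinar covariate.

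The direction of the set rested on the scaling of libraries. As a share of all counts the 10 genes together took 0.255% to 0.305% in anti-CD3 and 0.251% to 0.504% in IgG, where IgG 6 was the highest. Under scaling by library totals alone, which was added with the data in view, the median over all genes was -0.70 and that of the 10 genes was -0.19, so the set lay 0.51 above the median gene, beside 0.47 with TMM scaling. On that scale Xbp1 lay 0.97, Herpud1 0.84, Sdf2l1 0.71, Pdia6 0.65 and Hspa5 0.61 above the median gene, and Calr was at -0.09 relative to it.

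Ratios between genes of the same library do not depend on scaling. They can still differ with the cells that a library holds, which was not tested for them. The count of Hspa5 was 3.06 times that of Hsp90b1 at the lowest, 3.11 times at the median and 3.62 times at the highest in anti-CD3 islets, against 2.02, 2.20 and 2.74 times in IgG islets, with no overlap between the groups. Within IgG this ratio was 2.74 and 2.58 in IgG 3 and IgG 4, where acinar shares were 71.8% and 71.2%. In IgG 2 and IgG 1 it was 2.25 and 2.16 (67.9% and 64.9%), and in IgG 5 and IgG 6 2.02 and 2.12 (55.4% and 32.4%). Within anti-CD3 it was 3.11 in anti-CD3 4 (68.6%), 3.10 in anti-CD3 3 (69.4%) and 3.36 in anti-CD3 2 (69.4%). It was 3.06 in anti-CD3 6 (70.9%), 3.06 in anti-CD3 1 (71.6%) and 3.62 in anti-CD3 5 (72.5%). A link between this ratio and the acinar share was not tested. Pdia6 over Calr was 1.06 to 1.55 in anti-CD3 and 0.591 to 1.00 in IgG, and Sdf2l1 over Calr was 0.224 to 0.362 in anti-CD3 and 0.103 to 0.219 in IgG, again without overlap. These were the 3 of 45 ratios between the genes of the set in which the groups did not overlap. The 45 ratios share genes, and Calr is the denominator in 2 of the 3. The share of such ratios among other gene pairs was not measured, so whether 3 of 45 is unusual is not known. The 3 ratios are given as descriptions, without a test. The ratio of Pdia6 to Pdia4, at 4.56 to 7.49 in anti-CD3 and 3.30 to 6.09 in IgG, did overlap. Hspa5, Hsp90b1, Pdia6 and Calr, of the first 2 ratios without overlap, held an ERSE upstream, while Sdf2l1, of the third, held none. A link between the element and the ratios was not tested.

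**Figure D3:**
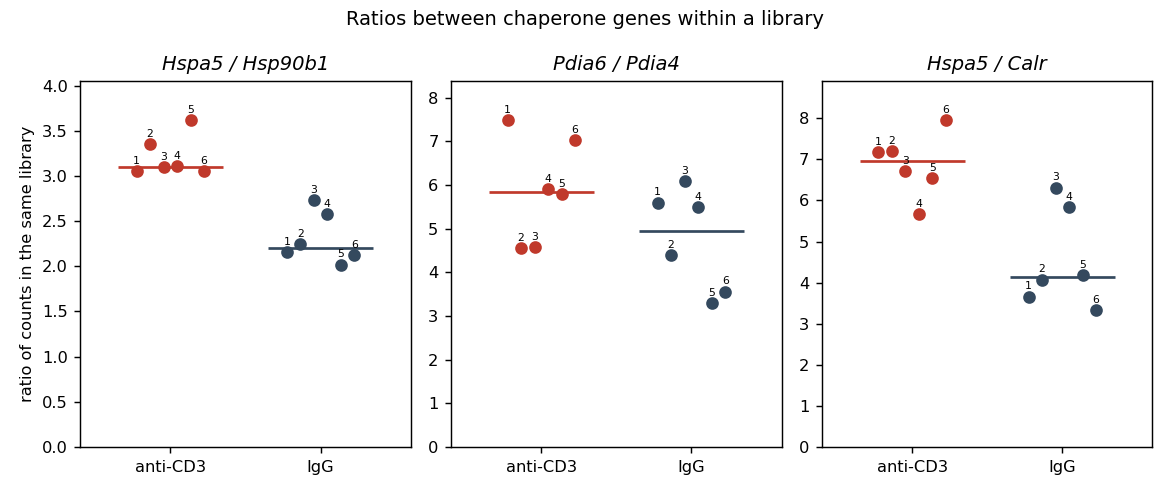
Ratio of the counts of 2 genes in the same library for 6 anti-CD3 and 6 IgG libraries, with replicate numbers and median lines. For Hspa5 over Hsp90b1 the anti-CD3 libraries lie from 3.06 to 3.62 and the IgG libraries from 2.02 to 2.74. The groups overlap for Pdia6 over Pdia4 and for Hspa5 over Calr (5.68 to 7.95 in anti-CD3, 3.33 to 6.31 in IgG).

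Per kilobase of annotated exon, Hspa5 had the highest level in both groups, with a median of 5739 normalized counts per kilobase in anti-CD3 and 3653 in IgG, and its lowest library lay above the highest of every other gene of the set. In anti-CD3 it was followed by Hsp90b1 at 1783, Xbp1 at 1477, Pdia6 at 1282, Calr at 1146, Herpud1 at 922, Sdf2l1 at 873, Dnajb9 at 470.5, Pdia4 at 303 and Hyou1 at 259, and each of these overlapped its neighbour in the order. In IgG the order after Hsp90b1, at 1776, was Calr at 1253, Xbp1 at 1048, Pdia6 at 832, Sdf2l1 at 612, Herpud1 at 543 and Dnajb9 at 412, with Hyou1 and Pdia4 both at 266. There Calr overlapped neither Hsp90b1 nor Xbp1. Divided by the longest transcript instead, Xbp1 (2253), Hsp90b1 (2231) and Pdia6 (2208) were close together in anti-CD3. All 10 genes were strongly expressed, at or above the 92.0th percentile of the genes tested by mean level.

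The 10 genes varied together only in part. With the group means taken out, Pearson's r over 12 libraries had a median of 0.33 over the 45 pairs and ran from -0.25 to 0.87, as a description. Pdia6 and Herpud1 followed the mean of the other 9 most closely (r = 0.78 and 0.73) and Calr least (r = 0.11). The genes outside the set whose profile was most like it, out of 6282 ranked, were Fkbp4 (r = 0.88), an HSP90 co-chaperone of the cytosol, Fam220a (0.88), Pdcd4 (0.86), an inhibitor of translation, Dnajc3 (0.84), the BiP co-chaperone p58IPK, Lamtor3 (0.83), Atg5 (0.83), Lurap1l (0.82) and Srp9 (0.82), a subunit of the signal recognition particle. Of the 8, 50 and 100 genes most like the set, 1, 12 and 13 belonged to the pathway lists below, which made up 1.80% of the ranked genes.

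Genes around the set in the same pathway, together with chaperones outside the ER, were grouped by role, 117 in all. Of these 116 were tested and 0 passed at an adjusted p of 0.05 in edgeR. At an unadjusted p under 0.05, 34 were higher and 2 lower in anti-CD3, beside 9.68% of all genes higher and 18.4% in either direction. The 2 lower genes, Hsp90ab1 and Hspd1, were from the lists of chaperones outside the ER. With DESeq2 14 passed, beside 3.58% of all genes. Without IgG 5 and IgG 6 the unadjusted counts were 19 higher and 2 lower, beside 6.23% of all genes higher, and with the acinar covariate 12 higher and 3 lower, beside 4.8%. On library totals alone every pathway list's median was negative, from -0.56 to -0.04, and each lay above the median of all genes, -0.70. Among the stress sensors, Ern1, which encodes IRE1, was at -0.12 ± 0.20, Atf6 at 0.22 ± 0.14, its relative Atf6b at -0.01 ± 0.15 and Eif2ak3, the kinase PERK, at 0.56 ± 0.29 (SE, n = 6 per group). Eif2ak3 was at 0.03 with the acinar score as a covariate. Of 6 sensor and protease genes tested 3 were higher, none under an unadjusted p of 0.05, and the median was 0.07.

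Genes of entry into the ER had a median of 0.47 and the ATF4 and CHOP arm, described last, one of 0.42, and with limma-voom these were 0.38 and 0.45. All 16 genes of entry had positive values and 11 were under an unadjusted p of 0.05, beside 9.68% of all genes. Spcs2, a subunit of signal peptidase, had 1125 to 1823 normalized counts in anti-CD3 and 880 to 999.9 in IgG, without overlap, at 0.61 ± 0.13 (SE, edgeR adjusted p = 0.0659). Sec61g, a small subunit of the translocation channel, was at 0.80 ± 0.19 (SE, edgeR adjusted p = 0.0751). This list's median was 0.29 with IgG 5 and IgG 6 left out and 0.19 with the acinar covariate.

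Partners of BiP were all on the higher side, 6 of 6, with a median of 0.32 and 1 of them under an unadjusted p of 0.05. This was Dnajc3, with 2179 to 3242 normalized counts in anti-CD3 and 992 to 2178 in IgG, at 0.72 ± 0.18 (SE, edgeR adjusted p = 0.0887), whereas Dnajc1 was at 0.38 ± 0.18. The median was 0.035 with the acinar covariate, where 2 of the 6 were lower and Dnajc1 was at 0.04, and 0.15 with IgG 5 and IgG 6 left out. Of 17 disulfide enzymes 14 were higher, 6 of them under an unadjusted p of 0.05, with a median of 0.24, or 0.11 with the acinar covariate. Erp29, a lumenal folding factor, was at 0.50 ± 0.14, and Prdx4, the ER peroxiredoxin, at 1.02 ± 0.29 or 0.43 with the acinar score.

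Of 16 genes of ER-associated degradation 14 were higher and 3 of them were under an unadjusted p of 0.05, with a median of 0.22. With the acinar covariate 10 of the 16 were lower and the median was -0.031, and with IgG 5 and IgG 6 left out it was 0.04. Without IgG 6 alone it was 0.11. Selenos (listed as Vimp), a membrane selenoprotein of the retrotranslocation complex, was at 0.68 ± 0.19, and Derl1, one of the derlins of that complex, at 0.33 ± 0.13 (SE). In transport and retrieval, 9 of 11 were higher with 5 under an unadjusted p of 0.05 and a median of 0.29. This median was 0.12 with the acinar covariate and 0.16 with IgG 5 and IgG 6 left out. Manf, a secreted stress factor retained by BiP, had 1787 to 3047 normalized counts in anti-CD3 and 1459 to 1859 in IgG, at 0.63 ± 0.16 (SE, edgeR adjusted p = 0.0841), and the GTPase gene Sar1b of transport vesicles was at 0.44 ± 0.14. In the calnexin cycle 5 of 8 were higher, with a median of 0.05, or -0.067 with the acinar covariate and -0.044 with IgG 5 and IgG 6 left out. Its genes with the smallest p, the glucosidase Mogs and the cargo receptor Lman1, were at 0.38 ± 0.17 and 0.21 ± 0.14 (SE).

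Chaperones outside the ER had positive and negative values. Of 15 cytosolic chaperones 8 were higher and 7 lower, with a median of 0.12 and 1 lower gene, Hsp90ab1, under an unadjusted p of 0.05. Hsp90ab1, the constitutive cytosolic HSP90, was at -0.43 ± 0.14, and Hspa8, the constitutive HSP70, at 0.25 ± 0.17 (SE). Of 8 mitochondrial chaperones and proteases 5 were higher, with a median of 0.07 and 1 gene in each direction under an unadjusted p of 0.05, with Clpx at 0.45 ± 0.19 and Hspd1, the mitochondrial HSP60, at -0.40 ± 0.18 (SE). In the ATF4 and CHOP arm all 13 were higher, with a median of 0.42 and 6 under an unadjusted p of 0.05. Ddit3, which encodes CHOP, was at 1.51 ± 0.27 and Atf3 at 1.59 ± 0.32, Trib3 at 0.42 ± 0.40 and Atf4 at 0.23 ± 0.20 (SE). With the acinar covariate 6 of the 13 were lower, Trib3 at -0.05 and Atf4 at -0.13 among them, and the median was 0.15. With IgG 5 and IgG 6 left out the median was 0.22. In these fits, in that order, Ddit3 was at 1.30 and 1.36 and Atf3 at 1.16 and 1.27. Differences between these lists were not tested.

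**Figure D4:**
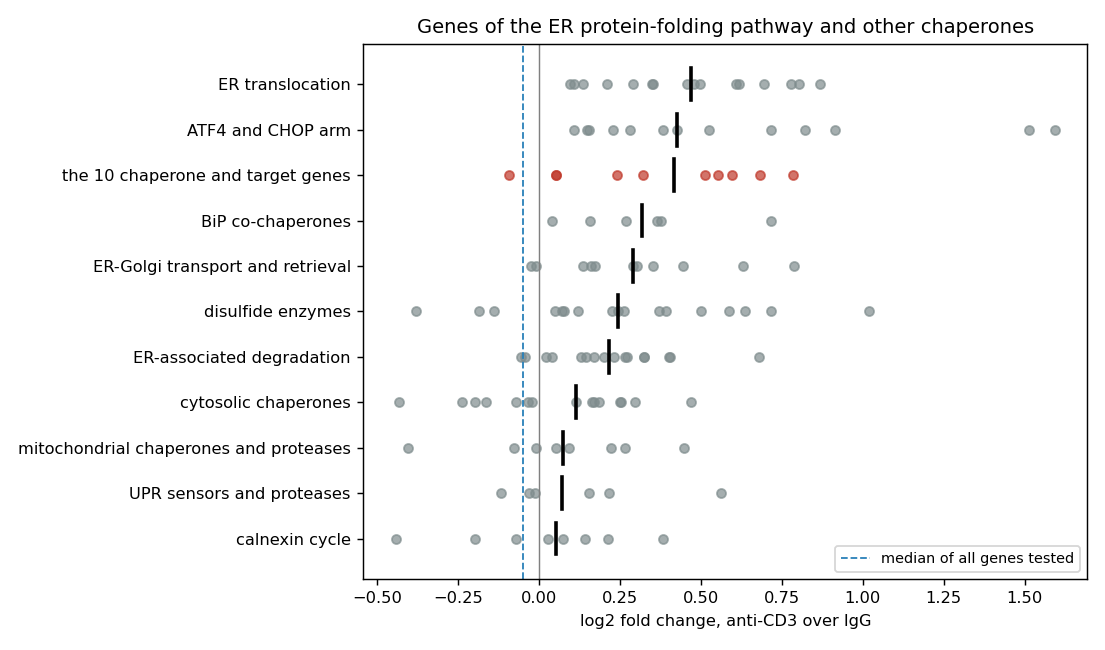
Log2 ratio of anti-CD3 to IgG of every tested gene of the 10-gene set (red) and of each pathway list (grey), with list medians in black and the median of all genes, -0.05, as a dashed line. With all 12 libraries the list medians run from 0.05 for the calnexin cycle to 0.47 for ER translocation, an order that other fits change.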

How the data were processed

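Poly(A) RNA of islets was sequenced as read pairs, per the labels' protocols. Trimmomatic 0.36, STAR 2.5.2b, GRCm38 (mm10), featureCounts of Subread 1.5.2 and DESeq2 are named in the submitters' processing notes, while options, annotation and strand are not given there. The deposited table holds whole-number counts per gene. The authors' second table holds a normalized signal (each count over a size factor of its library), log2 fold changes for anti-CD3 against IgG and p-values. The count column taken as anti-CD3 5 carries an unexplained prefix in its name, and its counts stood in 1 ratio to the normalized column of anti-CD3 5 in all 13627 genes above 0. The adjusted p-value is NA for 2935 of 13703 genes.

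Counts were tested in R 4.3.3 with edgeR 4.0.16 (filterByExpr with minimum count 10, TMM factors of 0.733 to 2.36, robust quasi-likelihood test, two-sided, Benjamini-Hochberg adjustment over 13115 genes, threshold 0.05). Alternatives were DESeq2 1.42.0, limma 3.58.1 voom, other scalings and filters, a replicate block, the acinar covariate, a length offset and omitted libraries. The procedure was tested on simulated data. Genes were named by rule, namely the 10 genes, 4 sensors, 4 genes of the ATF4 and CHOP arm, 2 of smallest p per other list and 8 of most similar profile. The 10 genes and the lists were chosen with earlier results of these data known. Ratios were chosen after values were seen. Symbols and exon lengths came from GENCODE M21 (GRCm38). The exon length sums all annotated exons of a gene.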

Additional observations from a re-analysis of the deposited data

How the results depend on the processing

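The 5 genes with the highest values in the fit of all 12 libraries, Hspa5, Pdia6, Sdf2l1, Herpud1 and Xbp1, kept positive values in all alternatives but library totals alone, where Hspa5 was at -0.090 and Pdia6 at -0.049. On library totals Hsp90b1 was at -0.60, Pdia4 at -0.45, Dnajb9 at -0.29 and Hyou1 at -0.56. The median of the 10 was -0.19, beside -0.70 over all genes. On that scale 3 genes, Hsp90b1, Calr and Hyou1, were under an unadjusted p of 0.05, all lower, and Calr was the gene without overlap. The shares of all genes under that p or without overlap on that scale are not given here. These counts are therefore not read as a result about the 3 genes. The values of Hsp90b1 and Hyou1 near 0 changed sign elsewhere. Hsp90b1 was at -0.055 with the acinar covariate, -0.046 with limma-voom and -0.0013 to 0.117 with 1 library left out (below 0 without anti-CD3 1), and Hyou1 at -0.053 with the covariate, -0.0018 without IgG 5 and IgG 6, -0.021 with limma-voom and -0.033 to 0.153 with 1 library left out (below 0 without anti-CD3 3 or IgG 6). Of the 10 genes, 1 passed with no filter on low counts (Xbp1), 2 passed DESeq2 and 0 passed without any 1 library. Leaving out 1 library gave 5 to 6 genes under an unadjusted p of 0.05, a median of 0.36 to 0.49 and 1 to 2 genes without overlap, 2 without anti-CD3 4 (with Hspa5) or IgG 3 (with Pdia6). The acinar covariate left 2 under that p. Of the pathway genes 5 passed with no filter, 2 with limma-voom, 14 with DESeq2 and 0 to 6 with 1 library left out. Over all genes 10 passed, against 469 with DESeq2, 167 with no filter, 135 with limma-voom, 6 with upper-quartile factors, 5 without robust estimation, 4 with the length offset, 1 without IgG 5 and IgG 6, 0 with the acinar covariate or library totals, and 0 to 203 with 1 library left out, 203 without anti-CD3 2. The replicate number was also used as a block. It left 5 of the 10 genes under an unadjusted p of 0.05 with a median of 0.43, and 0 genes passed overall. Same-numbered libraries correlated between -0.29 and 0.55, so the numbers were not taken as pairs. Each gene of the set had at least 355 counts in every library.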
